A study of Homo sapiens with 12 samples.

Results

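ZC3H12A, which encodes the endoribonuclease MCPIP1 (also called Regnase-1), and 9 further genes for factors that destroy inflammatory mRNAs were followed through 12 RNA libraries of the established human neuroblastoma line SK-N-SH, of wild-type genotype per the labels. The 10 genes were chosen by symbol: the Regnase family ZC3H12A, ZC3H12B, ZC3H12C and ZC3H12D, the Roquins RC3H1 and RC3H2, the tristetraprolin family ZFP36, ZFP36L1 and ZFP36L2, and N4BP1. All 10 were found among the 18739 genes of the deposited tables, and all 10 were among the 15051 genes that passed the filter on low counts. The libraries form 4 groups of 3: cells given chaetocin at 50 nM, cells given its solvent DMSO, cells transfected with an siRNA against SUV39H1 (siSUV39H1), and cells transfected with a control siRNA (siNC). Chaetocin, a compound from fungi, is used to inhibit the histone methyltransferase SUV39H1, and the series as a whole asks what inhibition or silencing of SUV39H1 does to this line, with AURKA and MCPIP1 named in its title. The submitters' design text speaks of biological triplicates, but neither it nor the labels say how long the cells were treated or whether the replicates came from separate cultures, so that the p-values measure the spread between these libraries, which may be technical.

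Many mRNAs of cytokines and other early inflammatory genes are short-lived because their 3′ untranslated regions hold AU-rich elements or stem-loops that recruit decay factors. Tristetraprolin (ZFP36) and its relatives bind AU-rich elements and bring in the CCR4-NOT deadenylase, the Roquins bind stem-loops and do the same, and MCPIP1 cuts stem-loop mRNAs itself with a PIN-like nuclease domain. Several of these factors are themselves induced by inflammatory signals, degrade their own transcripts or each other's, and are inactivated by phosphorylation or cleavage, so that their mRNA level is only a part of their activity. The libraries measured RNA only, and neither protein nor decay rates were measured.

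The libraries held between 18004632 and 19976995 counts, and the 3 chaetocin libraries were the smallest, at no more than 18235528. They nevertheless held more genes above 0, at 17692 to 17748, against 16125 to 16308 in the other libraries. SUV39H1, the target of the knockdown, had 5.73, 6.07 and 5.48 CPM (TMM-normalised counts scaled to library size) in siSUV39H1 libraries, against 18.7, 17.0 and 16.7 CPM in siNC libraries, a log2 change of −1.60 ± 0.11 (± standard error throughout). It was also lower with chaetocin, at 7.65 ± 0.20 CPM, than with DMSO, at 21.5 ± 2.7 CPM (mean ± SD, n = 3 each). Of 7 noradrenergic neuroblast markers 6 could be tested and all 6 fell with chaetocin, where the 7 had a summed level of 61.8 to 63.4 TPM (the authors' length-corrected level) against 705 to 847 TPM with DMSO, and TH was at 0 in every DMSO and siNC library. Of 8 blood cell markers, 6 could be tested and all 6 rose, and the 8 summed to 63.8 to 70.9 TPM with chaetocin and 2.1 to 3.24 TPM with DMSO, of which FCER1G alone made up 42.6 and 1.47 TPM, while CD3E was at 0 in all libraries outside the chaetocin group. The 6 endothelial markers summed to between 22 and 23.3 TPM with chaetocin and between 1.4 and 1.68 TPM with DMSO, and all 4 that could be tested rose. Of 8 epithelial markers, 7 could be tested, of which 6 rose and 0 fell. Of 7 Schwann cell markers, 4 could be tested, of which 1 rose and 2 fell. Several of the tested blood and endothelial markers passed the low-count filter through the chaetocin libraries. In bulk RNA, fewer cells of a type and less RNA per cell cannot be told apart, and the part of these shifts in the results that follow was not tested.

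**Figure D1:**
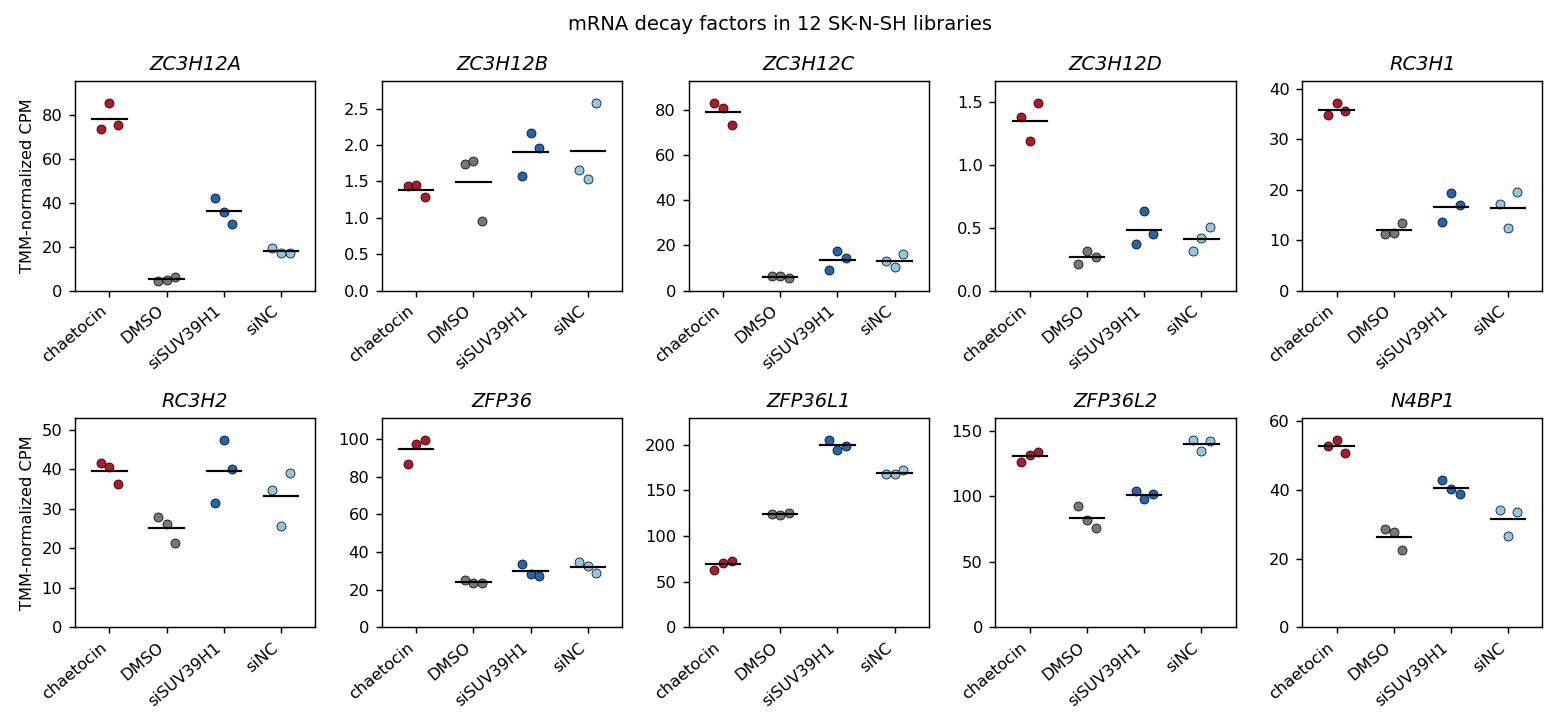
Normalised CPM (vertical axes, linear, from 0) of the 10 decay factors in the 12 libraries, with 1 point per library and a bar at the mean of each group of 3. ZC3H12A, ZC3H12C, ZC3H12D, RC3H1, ZFP36 and N4BP1 stand highest in all 3 chaetocin libraries, and ZFP36L1 stands lowest there. ZC3H12A, ZFP36L1 and ZFP36L2 each separate all 4 groups from each other.

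With chaetocin, 8 of the 10 decay factors rose, ZFP36L1 fell and ZC3H12B did not pass the test. ZC3H12D is counted among the 8 but passed the low-count filter through the chaetocin libraries alone, and without it 7 of 9 rose. Most genes of the series were called with chaetocin, 79.5% in either direction (41.1% higher and 38.4% lower), so that being called is by itself no mark of these genes. Their median log2 change was 1.29, or 1.0 without ZC3H12D, beside 0.04 over all genes tested. In 9 of the 10 (8 of 9 without ZC3H12D) the groups did not overlap, as was the case for 82.8% of all genes. A gene was called at a Benjamini-Hochberg adjusted p under 0.05 in edgeR's quasi-likelihood test, fitted once over all 12 libraries. With siSUV39H1 relative to siNC, 3 of the 10 rose (ZC3H12A, ZFP36L1 and N4BP1), ZFP36L2 fell and 6 did not pass the test, where 33.9% of all genes were called (15.3% higher and 18.6% lower). Over all genes that split was 2310 higher and 2799 lower, and 3318 higher and 1941 lower with limma-trend on log2(TPM + 1). The groups of 4 of the 10 did not overlap there, against 42.3% of all genes.

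Per transcript length, the tristetraprolin family was the most abundant of the 3 families in every group. Its 3 genes summed to 223 ± 9.74 TPM with chaetocin and 138 ± 9.92 TPM with DMSO, and to 221 ± 4.21 TPM with siSUV39H1 and 208 ± 14.9 TPM with siNC. The 4 ZC3H12 genes together reached 76.2 ± 5.58 TPM with chaetocin and 4.95 ± 0.205 TPM with DMSO, and 30.7 ± 3.14 TPM with siSUV39H1 and 15.8 ± 1.9 TPM with siNC. The 2 Roquins summed to 17.8 ± 1.18 TPM with chaetocin and 8.05 ± 1.39 TPM with DMSO, and to 12.5 ± 2.65 TPM with siSUV39H1 and 10.3 ± 2.67 TPM with siNC. Of the summed TPM of all 10 genes, ZC3H12A made up 17.5 ± 0.91% with chaetocin and 2.15 ± 0.445% with DMSO, and 9.82 ± 1.25% with siSUV39H1 and 5.16 ± 0.254% with siNC.

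ZC3H12A (chromosome 1, 37474580 to 37484377, hg38) had 73.6, 85.3 and 75.4 CPM in chaetocin libraries, against 4.38, 4.72 and 6.07 CPM in DMSO libraries. The lowest chaetocin library lay far above the highest DMSO library. The log2 change was 3.95 ± 0.14, or 15.4-fold (edgeR adjusted p = 7.54e-13). In siSUV39H1 libraries the gene had 42.0, 35.8 and 30.4 CPM, against 19.3, 17.3 and 17.2 CPM in siNC libraries, again without overlap, a log2 change of 1.01 ± 0.12 and 2.01-fold (adjusted p = 1.5e-05). The chaetocin effect exceeded the siSUV39H1 effect by 2.94 ± 0.18 on the log2 scale (adjusted p = 1.33e-09). All 3 steps in the order of its group levels were called: chaetocin stood above siSUV39H1 (adjusted p = 3.25e-07), siSUV39H1 above siNC, and siNC above DMSO. The step between the controls was itself 3.55-fold, with siNC at 18.0 ± 1.19 CPM and DMSO at 5.06 ± 0.892 CPM (log2 change 1.83 ± 0.14, adjusted p = 2.76e-07), larger than the step made by siSUV39H1 on top of siNC. AURKA, named beside MCPIP1 in the series' title, fell with both treatments, by 0.65 on the log2 scale with chaetocin (SE 0.10) and by 0.58 with siSUV39H1 (SE 0.10).

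The 250 bases before the RefSeq start site of ZC3H12A are shown because they hold 5 matches to the GC box, a short motif bound by SP-type factors, and none to the kappaB consensus, the motif of the NF-kB factors that are known to induce MCPIP1 in other cells. The region is chr1:37474330-37474579, plus strand, on GRCh38.p14, and capitals mark GGGCGG on either strand.
ZC3H12A: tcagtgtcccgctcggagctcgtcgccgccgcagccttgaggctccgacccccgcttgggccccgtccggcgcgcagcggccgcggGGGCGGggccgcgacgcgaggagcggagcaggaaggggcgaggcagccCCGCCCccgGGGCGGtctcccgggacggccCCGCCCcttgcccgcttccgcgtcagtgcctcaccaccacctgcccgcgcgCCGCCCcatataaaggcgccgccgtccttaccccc
GGGCGG is common, being present in 45% of 35116 promoter windows of 300 bases from the same RefSeq table. The search covered both strands of 7 motifs in these windows, and no match means only that the letters are not in this window.

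ZC3H12C, the Regnase-3 gene, is a close relative of ZC3H12A with the same kind of nuclease domain. It rose with chaetocin about as far as ZC3H12A, with 82.9, 80.9 and 73.2 CPM in chaetocin libraries, against 6.38, 6.50 and 5.49 CPM in DMSO libraries. The groups were far apart and each was tight. The log2 change was 3.69 ± 0.20, or 12.9-fold (edgeR adjusted p = 1.33e-10). In siSUV39H1 libraries it had 9.14, 17.7 and 14.3 CPM, against 13.1, 10.3 and 16.2 CPM in siNC libraries. Here the groups overlapped over most of their range, and the log2 change of 0.06 ± 0.19 did not pass the test (adjusted p = 0.852). ZC3H12C thus had a called rise with chaetocin but not with siSUV39H1, and the difference of the 2 effects was itself called, at 3.63 ± 0.28 (adjusted p = 1.29e-08). It was higher in siNC than in DMSO, by 1.11 ± 0.21 (adjusted p = 0.00072).

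The promoter of ZC3H12C (chromosome 11, 110093392 to 110171841) is printed for comparison with that of ZC3H12A, since it holds a kappaB consensus match, on the minus strand, with its first base at position −232 from the start site, beside 2 GC boxes. Its 250 bases are chr11:110093142-110093391, plus strand, GRCh38.p14, and capitals mark these matches. The second RefSeq start site of the gene, about which nothing in these data bears, held none of the 7 motifs.
ZC3H12C: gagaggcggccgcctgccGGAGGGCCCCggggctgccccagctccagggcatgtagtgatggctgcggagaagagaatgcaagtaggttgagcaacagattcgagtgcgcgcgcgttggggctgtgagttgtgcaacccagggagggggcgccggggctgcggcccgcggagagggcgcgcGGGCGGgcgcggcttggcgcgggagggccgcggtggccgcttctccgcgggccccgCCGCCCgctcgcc
The kappaB consensus was present in 11.3% of all windows, and in 2 of the 10 windows that were found for 8 of the 10 genes, those of ZC3H12C and RC3H2.

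ZC3H12D, the Regnase-4 gene, was near the limit of detection. It had 27.2, 23.4 and 27.7 counts in chaetocin libraries, against 3.94, 5.52 and 5.18 expected counts in DMSO libraries. It passed the low-count filter through the chaetocin group alone, so that a difference there was bound to follow, and its log2 change of 2.33 ± 0.32 (edgeR adjusted p = 6.81e-06) is given as a description. In siSUV39H1 libraries it had 6.76, 12.7 and 8.62 counts, against 5.59, 7.87 and 9.93 counts in siNC libraries, and these overlapped (log2 change 0.24 ± 0.35, adjusted p = 0.674). ZC3H12B (chromosome X, 65034826 to 65507887), the Regnase-2 gene, was low in all groups. It had 27.6, 27.7 and 24.5 counts in chaetocin libraries, against 33.1, 33.8 and 17.8 counts in DMSO libraries, and the groups overlapped. Chaetocin gave it a log2 change of −0.11 ± 0.28 (adjusted p = 0.734) and siSUV39H1 one of −0.02 ± 0.26 (adjusted p = 0.975), and both signs turned with scaling by library totals only, at 0.04 and 0.02.

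**Figure D2:**
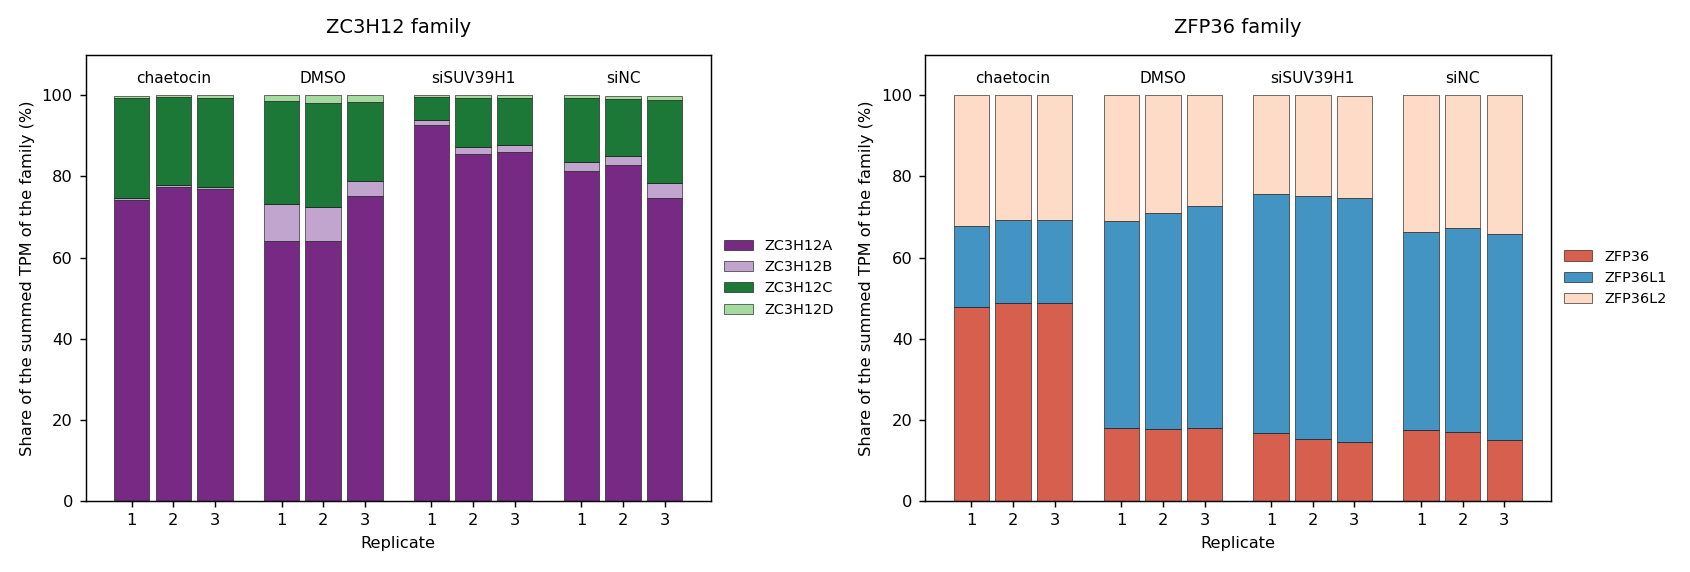
Share of each gene in the summed TPM of its family (vertical axis, percent) in the 12 libraries, with 1 stacked bar per library, for the ZC3H12 family on the left and the ZFP36 family on the right. ZC3H12A holds most of the ZC3H12 total in every library, and ZFP36L1 gives way to ZFP36 as the largest part of the ZFP36 total in the 3 chaetocin libraries.

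Within the ZC3H12 family the shares of ZC3H12A and ZC3H12C changed less with chaetocin than the total. ZC3H12A held 76.2 ± 1.73% of the summed TPM with chaetocin and 67.8 ± 6.39% with DMSO, and its ranges of 74.2 to 77.5% and 64.0 to 75.2% overlapped. ZC3H12C held 22.7 ± 1.64% with chaetocin and 23.5 ± 3.4% with DMSO, beside a sum of all 4 genes of 76.2 TPM with chaetocin and 4.95 TPM with DMSO. With siSUV39H1 the share of ZC3H12A was 88.1 ± 3.97%, with a range of 85.6 to 92.7%, and with siNC it was 79.6 ± 4.29%, with a range of 74.7 to 82.8%. ZC3H12B, whose count did not detectably move, held 0.437 ± 0.0598% with chaetocin and 7.07 ± 2.95% with DMSO.

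RC3H1 (Roquin-1) and RC3H2 (Roquin-2) encode RING and CCCH zinc finger proteins that act redundantly on stem-loop mRNAs such as those of ICOS and TNF in mouse lymphocytes. RC3H1 had 34.9, 37.1 and 35.7 CPM in chaetocin libraries, against 11.3, 11.5 and 13.3 CPM in DMSO libraries. The groups were clearly apart, with a log2 change of 1.58 ± 0.15, or 2.98-fold (edgeR adjusted p = 1.29e-07). RC3H2 had 41.5, 40.4 and 36.3 CPM in chaetocin libraries, against 27.9, 26.1 and 21.4 CPM in DMSO libraries. It rose less, by 0.65 ± 0.16 or 1.57-fold (adjusted p = 0.00144), again without overlap. RC3H1 made up 35.6 ± 1.99% of the summed TPM of the pair with chaetocin and 24.3 ± 5.6% with DMSO.

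In siSUV39H1 libraries RC3H1 had 13.5, 19.4 and 17.0 CPM, against 17.1, 12.3 and 19.5 CPM in siNC libraries. RC3H2 had 31.4, 47.3 and 39.9 CPM in siSUV39H1 libraries, against 34.8, 25.6 and 39.0 CPM in siNC libraries. For both Roquins the first siSUV39H1 library and the second siNC library were the low ones, and the groups overlapped. Neither change passed the test, at 0.03 ± 0.15 (adjusted p = 0.91) for RC3H1 and 0.25 ± 0.16 (adjusted p = 0.232) for RC3H2. For RC3H2 this rests on 1 library, as the adjusted p was 0.044 without siSUV39H1 replicate 1. The difference between its 2 effects (0.40 ± 0.22, adjusted p = 0.125) was called without siSUV39H1 replicate 2 (adjusted p = 0.0375) or without siNC replicate 2 (adjusted p = 0.0215). The promoter of RC3H2 is the other one with the kappaB consensus, in overlapping matches on the plus and minus strands with first bases at positions −229 and −228, shown in capitals (chr9:122905360-122905609, minus strand, GRCh38.p14).
RC3H2: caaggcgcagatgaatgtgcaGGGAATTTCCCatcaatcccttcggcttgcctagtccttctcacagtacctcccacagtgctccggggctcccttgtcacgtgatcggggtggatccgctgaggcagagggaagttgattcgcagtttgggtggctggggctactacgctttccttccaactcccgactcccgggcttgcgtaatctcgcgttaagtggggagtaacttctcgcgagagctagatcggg

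ZFP36 (chromosome 19, 39406847 to 39409407), the tristetraprolin gene, is an immediate early gene that is known to limit TNF by binding its AU-rich element. It had 86.4, 97.5 and 99.3 CPM in chaetocin libraries, against 25.1, 23.5 and 23.4 CPM in DMSO libraries. The groups were well apart, and the log2 change was 1.98 ± 0.09, or 3.93-fold (edgeR adjusted p = 2.3e-11). In siSUV39H1 libraries ZFP36 had 33.3, 28.3 and 27.2 CPM, against 34.4, 32.6 and 28.9 CPM in siNC libraries. These overlapped, and the change of −0.11 ± 0.09 did not pass the test (adjusted p = 0.382), while the difference of the 2 effects did (2.09 ± 0.13, adjusted p = 1.38e-09).

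ZFP36L1 (chromosome 14, 68787655 to 68796243) encodes a paralog that binds the same element, and it was the member that fell with chaetocin. It had 63.0, 70.8 and 72.8 CPM in chaetocin libraries, against 124, 123 and 125 CPM in DMSO libraries. All 3 chaetocin libraries were well below the DMSO libraries, and the log2 change was −0.85 ± 0.06 (adjusted p = 3.89e-09). With siSUV39H1 it moved the other way, at 205, 194 and 199 CPM in siSUV39H1 libraries, against 168, 168 and 172 CPM in siNC libraries, a rise of 0.24 ± 0.06 (adjusted p = 0.00618). The difference of the 2 effects was −1.09 ± 0.09 (adjusted p = 1.85e-08).

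ZFP36L2 (chromosome 2, 43222402 to 43226606), the third paralog, showed the opposite pair of signs. It had 126, 132 and 134 CPM in chaetocin libraries, against 92.9, 82.1 and 76.2 CPM in DMSO libraries, a rise of 0.64 ± 0.07 (adjusted p = 5.02e-07). It had 104, 98.2 and 102 CPM in siSUV39H1 libraries, against 143, 135 and 142 CPM in siNC libraries. Neither pair of groups overlapped, and the fall with siSUV39H1 was −0.46 ± 0.07 (adjusted p = 0.000103). The difference of the 2 effects was 1.10 ± 0.10 (adjusted p = 7.87e-08). The chaetocin libraries stood slightly below the siNC libraries without overlap, but this did not pass the test (−0.10 ± 0.07, adjusted p = 0.198), so that the rise with chaetocin was measured against a DMSO level that was the lowest of the 4 groups.

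The shares within the family changed accordingly. ZFP36 made up 48.5 ± 0.644% of the summed TPM with chaetocin and 17.9 ± 0.0798% with DMSO, and 15.5 ± 1.15% with siSUV39H1 and 16.5 ± 1.34% with siNC. ZFP36L1 made up 20.2 ± 0.28% with chaetocin and 53.0 ± 1.94% with DMSO, and 59.8 ± 0.71% with siSUV39H1 and 49.9 ± 1.05% with siNC. ZFP36L2 made up 31.3 ± 0.916% with chaetocin and 29.1 ± 1.91% with DMSO, and had 24.7 ± 0.461% with siSUV39H1 and 33.6 ± 0.706% with siNC. ZFP36 thus made up the largest share of the family in the chaetocin libraries, and ZFP36L1 in all others.

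The 3 tristetraprolin genes carry AU-rich elements in their own 3′ untranslated regions, and these are printed because tristetraprolin is known to act on its own mRNA as well as on those of cytokines. Each line gives 29 bases of GENCODE v29 transcripts on GRCh38, and capitals mark TATTTAT, the core of the element, on the transcript strand.
ZFP36 (chr19:39409181-39409209, plus strand): aatgggcccttTATTTATgacgactttat
ZFP36 (chr19:39409221-39409249, plus strand): tgattttatagTATTTATatatattgggt
ZFP36L1 (chr14:68788336-68788364, minus strand): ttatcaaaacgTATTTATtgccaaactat
ZFP36L1 (chr14:68788294-68788322, minus strand): aattttgttcaTATTTATcgggatgacaa
ZFP36L1 (chr14:68788077-68788105, minus strand): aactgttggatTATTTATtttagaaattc
ZFP36L2 (chr2:43223448-43223476, minus strand): actatttaactTATTTATtatcttgtgaa
ZFP36L2 (chr2:43223400-43223428, minus strand): tgttcatactgTATTTATcaagtatgatg
ZFP36L2 (chr2:43223212-43223240, minus strand): attgtatgtaaTATTTATttcattaattt
TATTTAT occurred 3 times in each of ZFP36, ZFP36L1 and ZFP36L2, 2 of the matches of ZFP36 being shown, in regions of 713, 1871 and 1917 bases. Of genes with a 3′ untranslated region within 20% of these lengths, 19.7%, 40.2% and 40.6% held the sequence at least once. RC3H2 held it 5 times in 5071 bases and N4BP1 once in 4178 bases, where 71.4% and 64.4% of genes of like length held it. ZC3H12A, in 768 bases, held none, nor did ZC3H12B and ZC3H12D. As given above, ZFP36 and ZFP36L2 rose and ZFP36L1 fell with chaetocin, and ZFP36L1 rose and ZFP36L2 fell with siSUV39H1. Any part of the element in these changes was not tested.

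The 250 bases before the start of ZFP36 hold 3 GC boxes and a match to TGACNNNGC, the core of the antioxidant response element bound by NRF2, on the minus strand, and are shown with these in capitals (chr19:39406597-39406846, plus strand, GRCh38.p14).
ZFP36: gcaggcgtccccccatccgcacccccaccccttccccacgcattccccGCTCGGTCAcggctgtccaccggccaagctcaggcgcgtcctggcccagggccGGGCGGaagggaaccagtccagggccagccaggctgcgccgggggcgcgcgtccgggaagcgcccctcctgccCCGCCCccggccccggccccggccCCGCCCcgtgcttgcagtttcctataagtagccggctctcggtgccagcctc
TGACNNNGC was present in 13.3% of all windows, among them the first of the 2 windows of ZFP36L1. Any link of these motifs to the changes was not tested. The CArG box of serum response factor and the AP-1 motif TGANTCA were in none of the 10 windows, against 1.29% and 7.71% of all windows. The window of RC3H1 (chr1:173993073-173993322, minus strand) lies within the gene (173931084 to 174022357), not at its 5′ end. The cyclic AMP response element TGACGTCA was in the window of N4BP1 and the second window of ZFP36L1, against 1.85% of all windows. The interferon-type repeat, a spaced pair of GAAA, was in the first window of ZFP36L1, against 3.57%.

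N4BP1 (chromosome 16, 48538726 to 48610180) encodes an NYN-domain ribonuclease known to restrain NF-kB signalling and to be cleaved by caspases. It had 52.8, 54.5 and 50.8 CPM in chaetocin libraries, against 28.7, 27.8 and 22.5 CPM in DMSO libraries, a rise of 1.00 ± 0.11 without overlap (edgeR adjusted p = 3.42e-07). In siSUV39H1 libraries it had 42.9, 40.3 and 38.9 CPM, against 34.2, 26.5 and 33.5 CPM in siNC libraries. The groups did not overlap, but the siNC group held 1 low library. The rise of 0.37 ± 0.11 was called (adjusted p = 0.0123) and was no longer called without siNC replicate 2 (0.27, adjusted p = 0.0573). The chaetocin effect was larger than the siSUV39H1 effect, by 0.63 ± 0.15 (adjusted p = 0.00157).

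**Figure D3:**
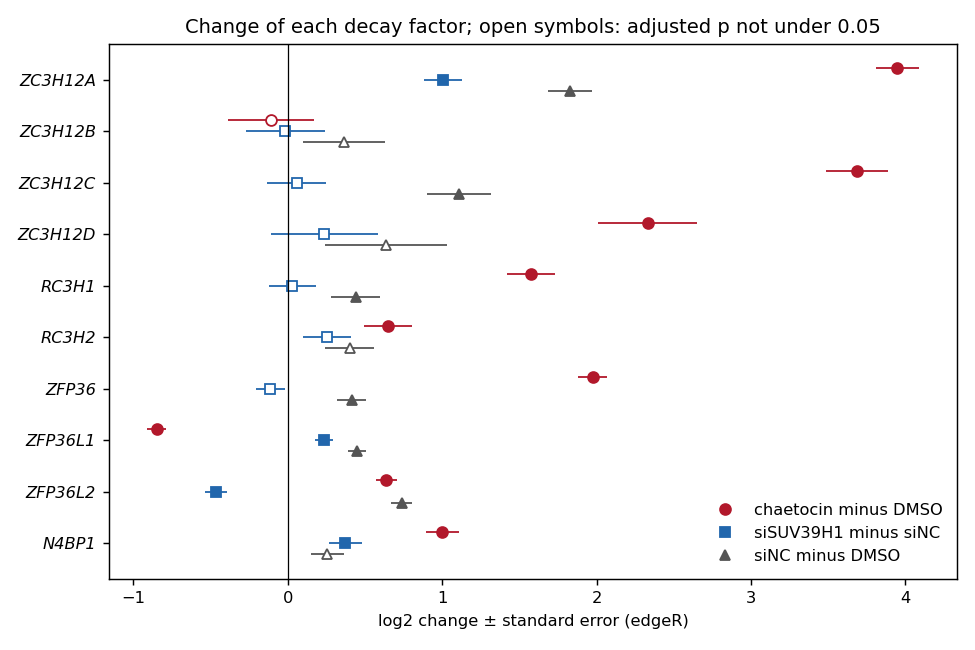
Log2 change (horizontal axis) of each of the 10 decay factors ± standard error from edgeR, for chaetocin minus DMSO, siSUV39H1 minus siNC and siNC minus DMSO, with open symbols where the adjusted p was not under 0.05. ZC3H12A and ZC3H12C are farthest to the right with chaetocin, at 3.95 and 3.69, ZFP36L1 is the called value to the left at −0.85, and ZC3H12A is the farthest to the right with siSUV39H1, at 1.01.

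Tested directly, the chaetocin effect and the siSUV39H1 effect differed for 8 of the 10 genes, 7 in the higher and 1 in the lower direction, where 67.6% of all genes were called (33.9% and 33.7%). The 2 that were not called were ZC3H12B and RC3H2. ZC3H12D is among the 7 but passed the low-count filter through the chaetocin libraries alone, so that its difference was bound to follow. The effects had the same sign and were both called for ZC3H12A and N4BP1, and they had opposite signs and were both called for ZFP36L1 and ZFP36L2. The remaining members were called in the chaetocin comparison alone, or, for ZC3H12B, in neither.

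The 2 controls were not alike. With siNC relative to DMSO, 6 of the 10 genes were called, all higher, where 35.2% of all genes were called (17.0% higher and 18.2% lower). The groups of 5 of the 10 did not overlap, against 46.5% of all genes. The rises were 1.83 ± 0.14 for ZC3H12A, 1.11 ± 0.21 for ZC3H12C, 0.74 ± 0.07 for ZFP36L2, 0.45 ± 0.06 for ZFP36L1, 0.44 ± 0.16 for RC3H1 and 0.41 ± 0.09 for ZFP36. That of RC3H1 (edgeR adjusted p = 0.0398) was on the threshold and lost its call in 16 of the 25 alternatives tried. Transfection, culture and timing cannot be told apart in this contrast. All 6 tested noradrenergic markers were lower in siNC than in DMSO, with a summed level of 373 to 394 TPM in siNC libraries, against 705 to 847 TPM in DMSO libraries. With siSUV39H1, 3 of the 6 were higher than with siNC and 0 lower, at a sum of 483 to 538 TPM. The part of these shifts in the changes of the decay factors was not tested. Relative to DMSO, siSUV39H1 libraries were higher in 8 of the 10 genes and lower in 0, where 48.2% of all genes were called (22.3% higher and 25.9% lower), and 9 of the 10 did not overlap, against 53.6% of all genes. Against siNC in place of DMSO, chaetocin was higher in 6 of the 10 and lower in 1, where 76.8% of genes were called (39.2% higher and 37.5% lower), and 9 of the 10 did not overlap, against 78.8% of all genes. Against siSUV39H1 it was higher in 7 and lower in 1, where 75.2% were called (39.2% higher and 36.1% lower), and 9 of the 10 did not overlap, against 77.0%. These comparisons share libraries, and their values are therefore no independent evidence for each other. Those with chaetocin are counted over all 10 genes, ZC3H12D among them, which passed the low-count filter through the chaetocin libraries alone.

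The order of the group levels differed between genes. For ZC3H12A, ZC3H12C, ZC3H12D, RC3H1 and N4BP1 the means ran from chaetocin through siSUV39H1 and siNC down to DMSO. In that order the step between siSUV39H1 and siNC was not called for ZC3H12C and RC3H1 (adjusted p = 0.852 and 0.91). For ZC3H12D neither that step nor the one between siNC and DMSO was called (adjusted p = 0.674 and 0.283), and for N4BP1 the step between siNC and DMSO was not (adjusted p = 0.0767). ZFP36 ran from chaetocin through siNC and siSUV39H1 to DMSO, and the step between siNC and siSUV39H1 was not called. ZFP36L1 ran from siSUV39H1 through siNC and DMSO to chaetocin, with all 3 steps called. ZFP36L2 ran from siNC through chaetocin and siSUV39H1 to DMSO, and the step between siNC and chaetocin was not called. For RC3H2 and ZC3H12B no step between neighbours was called.

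**Figure D4:**
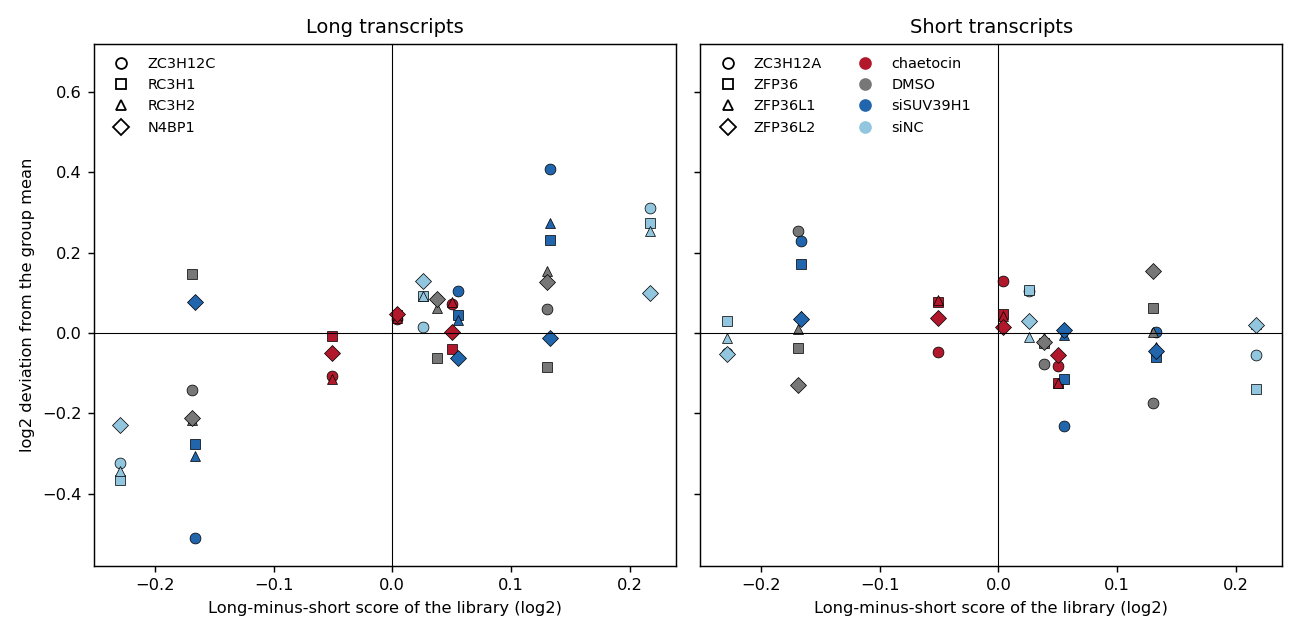
Log2 deviation of a gene from its group mean (vertical axis) against the long-minus-short score of the library (horizontal axis), for 4 long decay factor transcripts on the left and 4 shorter ones (at most 3644 bases) on the right, with 1 point per gene and library, coloured by group. In the 2 siRNA groups, ZC3H12C, RC3H1 and RC3H2 are low at scores near −0.2 and high at scores above 0.1. N4BP1 is not low in the first siSUV39H1 library. The shorter transcripts show no rise of that size in these groups, and ZC3H12A and ZFP36 are high in the first siSUV39H1 library. With DMSO, RC3H1 goes against the score, and N4BP1 and ZFP36L2 go with it.

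Several long members varied within the siRNA groups together with a score of transcript length, and N4BP1 did so less there. A score was taken per library as the median deviation from the group mean over the top quartile of genes by length (at least 4689 bases) minus that over the bottom quartile (at most 1917 bases). It was −0.17, 0.13 and 0.06 in siSUV39H1 libraries, 0.03, −0.23 and 0.22 in siNC libraries, 0.05, 0.00 and −0.05 in chaetocin libraries and 0.13, 0.04 and −0.17 in DMSO libraries. ZC3H12C (8940 bases), RC3H1 (11003), RC3H2 (7522), N4BP1 (7025), ZC3H12B (8022) and ZC3H12D (5633) exceed 4689 bases. ZC3H12C deviated by −0.51 in the first siSUV39H1 library and 0.41 in the second, and by −0.33 in the second siNC library and 0.31 in the third. RC3H1 deviated by −0.28, 0.23, −0.37 and 0.28 in these 4 libraries, and RC3H2 by −0.31, 0.28, −0.34 and 0.25. N4BP1 deviated by 0.08, −0.01, −0.23 and 0.10, which goes against the score in the siSUV39H1 pair and with it in the siNC pair. The low-count genes ZC3H12B and ZC3H12D deviated by −0.20, 0.155, −0.23 and 0.37 and by −0.17, 0.215, 0.02 and 0.14. Among the shorter transcripts, ZC3H12A (2614 bases) deviated by 0.23, 0.00, −0.05 and −0.06 in these 4 libraries. In DMSO libraries, RC3H1 (−0.085, −0.062 and 0.146) and ZC3H12A (−0.175, −0.078 and 0.253) went against the score. ZC3H12C (0.059, 0.084 and −0.143), RC3H2 (0.155, 0.061 and −0.217) and N4BP1 (0.128, 0.085 and −0.213) went with it there. So did the low-count ZC3H12B (0.201, 0.227 and −0.428) and the shorter ZFP36L2 (0.154, −0.023 and −0.13). With the score as a covariate, an alternative chosen after seeing the data, RC3H2 was called higher with siSUV39H1 (0.26 ± 0.06, adjusted p = 0.00348) and the other calls of the 10 genes in that comparison were as before. Over all genes, the median change with siSUV39H1 was 0.11 in the top and −0.09 in the bottom quartile, and with chaetocin 0.28 and −0.13, so that the long members sit on a background that is shifted upward. What sets the score was not tested.

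The genes whose profile over the 12 libraries was most like that of ZC3H12A were taken by the smallest root mean square difference of centred log2(CPM + 0.5) among the 11164 genes that averaged 5 CPM or more. They were SAA2, an acute-phase protein gene (0.25), the autophagy regulator DRAM1 (0.45), the transporter ABCA5 (0.51), the adhesion molecule ICAM1 (0.51) and the growth factor CSF1 (0.51). SAA2 had 13.4 and 0.439 CPM with chaetocin and DMSO and 7.46 and 2.76 CPM with siSUV39H1 and siNC. Its DMSO level rests on 25 counts over the group and lies under the 0.5 CPM added before the log, which shrinks its changes in this measure. Its edgeR log2 changes with chaetocin (4.92) and for siNC minus DMSO (2.64) were larger than those of ZC3H12A given above. SAA2 is the one of the 5 in which the log2 change with siSUV39H1 (1.43) was larger than that of ZC3H12A, whereas DRAM1 was at 0.08. The genes most like ZFP36 lay much nearer to it. They were PML (0.07), the kinase PIM3 (0.07), the sulfiredoxin SRXN1 (0.09), the deadenylase-like NOCT (0.10) and the glutathione reductase GSR (0.11). PML, which encodes the organizer of PML nuclear bodies, had 362 and 90.9 CPM with chaetocin and DMSO and 110 and 117 CPM with siSUV39H1 and siNC. SAA2 has a near-identical neighbour in SAA1, so that the split of reads between the pair is uncertain.

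**Figure D5:**
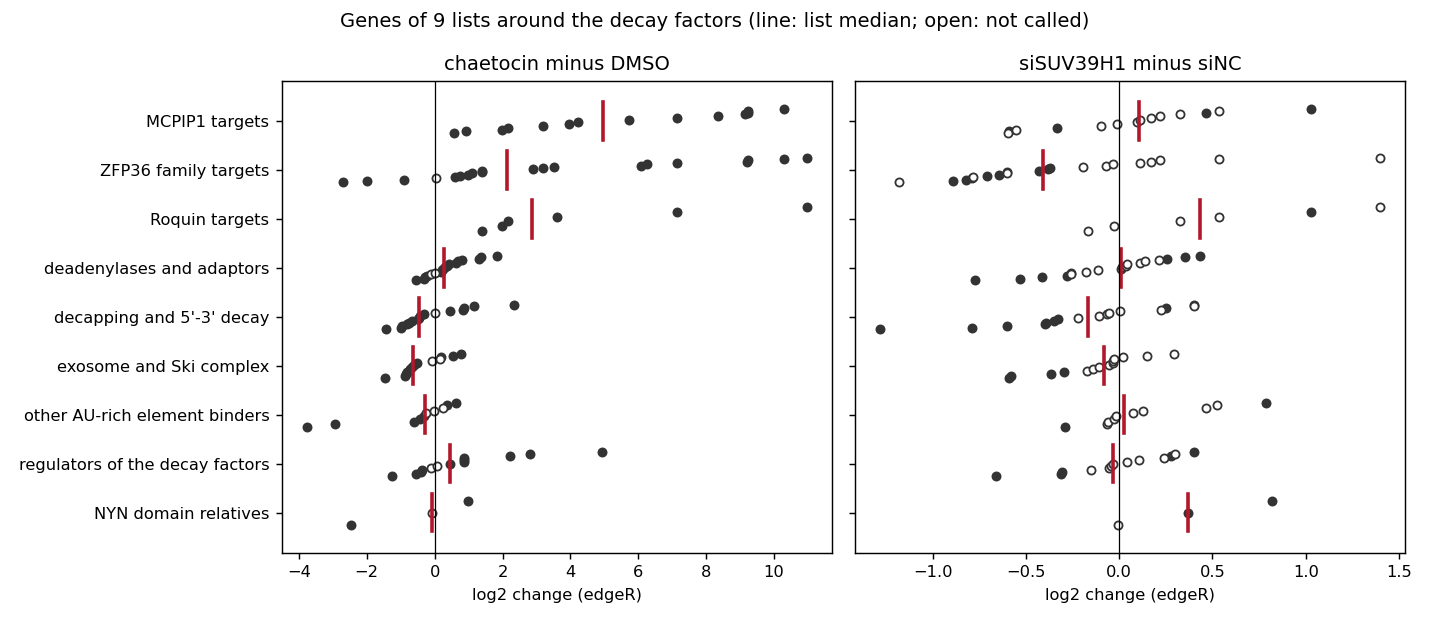
Log2 change (horizontal axes, of different span) of the genes in 9 lists around the decay factors, with chaetocin minus DMSO on the left and siSUV39H1 minus siNC on the right. Filled points were called by edgeR, open points were not, and a red line marks the median of each list. Target lists lie to the right of 0 with chaetocin, and the ZFP36 family targets lie mostly to the left of 0 with siSUV39H1.

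Transcripts known as targets of the decay factors were mostly higher with chaetocin, where 41.1% of all genes were higher and 38.4% lower. Of 16 listed MCPIP1 targets, 14 could be tested and all 14 rose, with a median log2 change of 4.97 beside 0.04 over all genes. The cytokine gene IL1B had 15044 counts over the 3 chaetocin libraries, against 26 over the 3 DMSO libraries, and the chemokine gene CXCL2 had 11170 against 18. IER3, an early response gene, had 388 ± 22.2 CPM with chaetocin and 7.27 ± 0.681 CPM with DMSO (5.74 ± 0.10). Of 20 ZFP36 family targets 16 rose, 3 fell and VEGFA (0.03 ± 0.08) did not pass the test, with a median of 2.14. CXCL1 had 22365 counts with chaetocin against 36 with DMSO, CSF2 had 6190 against 10, and LIF rose by 3.51 ± 0.10. All 6 tested Roquin targets of 7 listed rose, with a median of 2.87. TNF had 742 counts over the chaetocin libraries and 0 over the DMSO libraries, IL6 had 5102 against 35, and NFKBIZ rose by 2.0 ± 0.10. The target lists were drawn up with earlier results of these data known and share genes (IL6 is in all 3), and many of their genes are known to be induced by NF-kB. Some targets, TNF and ICOS among them, passed the low-count filter through the chaetocin libraries, so that a rise of these was bound to follow. ICOS had 4 counts over the DMSO libraries, 3 over siNC and 3 over siSUV39H1. The count and median of the Roquin targets include both genes.

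With siSUV39H1 the same lists differed from each other, where 15.3% of all genes were higher and 18.6% lower. Of the 14 MCPIP1 targets 2 rose (NFKBIZ and CXCL2), 2 fell (CCL2 and IER3) and 10 did not pass the test, with a median of 0.10 beside 0.01 over all genes. NFKBIZ, which encodes the nuclear regulator IκBζ, was at 81.0 ± 6.97 CPM with siSUV39H1 and 39.7 ± 4.91 CPM with siNC (1.03 ± 0.09, edgeR adjusted p = 6.41e-07). CXCL2 had 660 counts with siSUV39H1 against 468 with siNC (0.46 ± 0.13, adjusted p = 0.0147), and lost its call in 5 of the alternatives. The monocyte chemokine CCL2 fell by 0.59 on the log2 scale (SE 0.09, adjusted p = 0.000108), to 397 ± 55.1 CPM with siSUV39H1 against 598 ± 28.7 CPM with siNC. Of the 20 ZFP36 family targets 0 rose, 9 fell and 11 did not pass the test, with a median of −0.41. Cyclin D1 (CCND1) fell by 0.82 (SE 0.08), the phosphatase gene DUSP1 by 0.89 (SE 0.10) and the angiogenic factor gene VEGFA by 0.64 (SE 0.08). ZFP36L1 rose and ZFP36L2 fell in the same libraries, as given above. Of the 6 Roquin targets, NFKBIZ rose and the other 5 did not pass the test, among them IL6 (0.53 ± 0.28, adjusted p = 0.162) and REL (0.33 ± 0.19, adjusted p = 0.192).

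The targets also stood apart between the controls, where 17.0% of all genes were higher with siNC and 18.2% lower. With siNC relative to DMSO, 11 of the 14 MCPIP1 targets rose and 0 fell (median 1.38), 10 of the 20 ZFP36 family targets rose and 3 fell, and 2 of the 6 Roquin targets rose. The median of the ZFP36 list was 0.80, or 0.63 with TNF, which was at 0 counts in DMSO and 2 in siNC, set to the floor of 3 counts over a group.

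The machinery that the decay factors recruit did not move as one. Its counts, and those of the lists after it, stand beside 41.1% of all genes higher and 38.4% lower with chaetocin, and 15.3% higher and 18.6% lower with siSUV39H1, and no list was tested against other genes. Of 18 deadenylase and adaptor genes 12 rose and 4 fell with chaetocin (median 0.29), led by the antiproliferative adaptors TOB2 (1.84 ± 0.08) and BTG1 (1.3 ± 0.08) and by CNOT4 (1.35 ± 0.10), a ubiquitin ligase linked to the CCR4-NOT complex. With siSUV39H1, 3 of the 18 rose and 5 fell, with CNOT6, a catalytic deadenylase, falling by 0.77 (SE 0.11), CNOT9 by 0.41 (SE 0.06) and BTG1 by 0.53 (SE 0.09). Of 16 genes of decapping and 5′ to 3′ decay, 5 rose and 10 fell with chaetocin (median −0.45). The decapping cofactor DCP1A rose by 1.16 ± 0.08, and LSM7 (−1.42 ± 0.12) and LSM4 (−0.99 ± 0.09), of the ring that binds the ends of deadenylated mRNA, fell. With siSUV39H1, 2 of the 16 rose and 7 fell, with LSM1 at −1.28 ± 0.08, DCP1A at −0.79 ± 0.09 and the decapping enhancer EDC3 at −0.60 ± 0.09.

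The exosome degrades mRNA fragments from the 3′ end. Of 14 exosome and Ski complex genes 3 rose and 9 fell with chaetocin (median −0.64), with EXOSC8 at −1.47 ± 0.12, EXOSC1 at −0.87 ± 0.09 and EXOSC5 at −0.86 ± 0.10. Of all genes, 38.4% were lower with chaetocin, and 44.5% in the bottom quartile by transcript length. With siSUV39H1, 0 of the 14 rose and 4 fell, with EXOSC9 at −0.59 ± 0.08, EXOSC5 at −0.58 ± 0.09 and EXOSC2 at −0.37 ± 0.08. Of 10 other binders of AU-rich elements, 2 rose and 5 fell with chaetocin (median −0.30). The neuronal stabilizers ELAVL3 (−2.95 ± 0.14) and ELAVL4 (−3.76 ± 0.21) fell, beside the fall of the noradrenergic markers, and TIAL1 rose by 0.64 ± 0.07. With siSUV39H1, where 3 of the 6 tested noradrenergic markers were higher and 0 lower, ELAVL3 rose by 0.79 ± 0.12, HNRNPD fell by 0.29 (SE 0.08), and ELAVL4 (0.47 ± 0.18, adjusted p = 0.0525) and the other 7 did not pass the test.

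Among 13 regulators of the decay factors and of the signalling above them, 7 rose and 4 fell with chaetocin (median 0.45). TNFAIP3, which encodes the NF-kB inhibitor A20, had 34.2 ± 3.1 CPM with chaetocin and 1.11 ± 0.348 CPM with DMSO (4.94 ± 0.17), and its partner TNIP1 rose by 2.80 ± 0.07. IRAK1, a kinase of the interleukin-1 and Toll-like receptor pathway, fell by 1.26 (SE 0.08). With siSUV39H1, TNIP1 (0.40 ± 0.07) and IKBKB (0.28 ± 0.07), the kinase that marks MCPIP1 for destruction, rose, while BTRC, the ubiquitin ligase subunit that takes part in it, fell by 0.66 (SE 0.10), CASP8 and MAPK14 fell too, and 8 did not pass the test. Of the 3 further NYN domain genes, MARF1 rose with chaetocin (0.98 ± 0.09) and NYNRIN fell (−2.46 ± 0.13), whereas KHNYN (−0.08 ± 0.06) did not pass the test. With siSUV39H1, KHNYN (0.82 ± 0.06) and MARF1 (0.37 ± 0.09) rose and NYNRIN (−0.004 ± 0.11) did not pass the test.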

How the data were processed

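RNA of the 12 SK-N-SH libraries was extracted with Trizol and sequenced on a DNBSEQ instrument, per the labels' protocols. Each deposited table lists, per the file headers, an expected count, an FPKM and a TPM value of every gene in every library. Bowtie2, RSEM 1.3.1, DESeq2 1.4.5 and hg38 are named in the submitters' processing notes, in no order. The annotation, and whether counting used strand, is not given in the sources used here, so reads of overlapping genes (MIR6732 within ZC3H12A, SNORD90 within RC3H2, pseudogenes within ZC3H12B, RC3H1 and N4BP1) cannot be told apart from those of the decay factors. The authors' FPKM values were not used. The authors' TPM values served for levels between genes and for an alternative test. The labels say siNC and siSUV39H1 and are followed; the design text says shNC and shSUV39H1.

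Expected counts, 42% of which were not whole, were rounded and passed through filterByExpr. TMM scaling and edgeR 4.0.16 (quasi-likelihood test, R 4.3.3) followed, in 1 fit of the 12 libraries with a mean per group and 8 residual degrees of freedom; the biological coefficient of variation was 8.87%. P-values were adjusted by Benjamini-Hochberg over 15051 genes, and changes are log2 ± standard error. Replicates differed by 3.39 to 17.9 times the counting variance, so no library was a copy of another. Few counts limit ZC3H12B and ZC3H12D, with at most 51.3 in a library.

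The 10 genes, 9 gene lists and 5 marker lists were chosen with earlier results of these data known. The genes named are the 10, SUV39H1, AURKA, the 3 of smallest p in each list and comparison, and the 5 most like ZC3H12A and ZFP36; others in the text were chosen after their values were seen. Coordinates and promoters come from RefSeq (GRCh38.p14), and 3′ untranslated regions from GENCODE v29. Promoters of ZC3H12D and ZFP36L2 and 3′ untranslated regions of ZC3H12C and RC3H1 were not used here. Alternatives were other scalings (RLE, upper quartile, library totals), other filters (none, 1 CPM in 3 libraries), DESeq2 1.42.0, limma-voom and limma-trend (limma 3.58.1) on log2(TPM + 1) or log2(TPM + 0.1), the 6 libraries compared alone, a replicate block, an adjusted p under 0.01, each replicate left out and, chosen after seeing the data, a long-transcript covariate.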

Additional observations from a re-analysis of the deposited data

How the results depend on the processing

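Over the 25 alternatives (24 for the difference of the effects), the number of the 10 decay factors called was 9 in each for chaetocin minus DMSO, 3 to 5 for siSUV39H1 minus siNC, 8 to 9 for the difference of the effects and 5 to 8 for siNC minus DMSO. An adjusted p under 0.01 gave 3215 genes for siSUV39H1 minus siNC and 3452 for siNC minus DMSO, against 5109 and 5293 at 0.05. RC3H1 in siNC minus DMSO lost its call in 16 alternatives, with an adjusted p of up to 0.198. ZFP36 in siSUV39H1 minus DMSO lost its call without siSUV39H1 replicate 1 (adjusted p = 0.0759) and at 0.01, as did N4BP1 in siSUV39H1 minus siNC at 0.01.

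Signs turned where a log2 change was near 0, and the cause was not tested. ZC3H12B with chaetocin was 0.043 with library totals and 0.002 on log2(TPM + 0.1), and ran from −0.351 to 0.031 with a replicate left out. With siSUV39H1 it was 0.006 with upper-quartile scaling, 0.024 with library totals, 0.01 with limma-voom, 0.022 and 0.078 on TPM and 0 with the long-transcript covariate, and ran from −0.155 to 0.254. The difference of its effects was 0.019 with library totals, and ran from −0.37 to 0.038. KHNYN with chaetocin was 0.001 with upper-quartile scaling, 0.072 with library totals, and 0.094 and 0.098 on TPM. NYNRIN with siSUV39H1 was 0.005 with RLE, 0.017 with upper-quartile scaling, 0.036 with library totals, 0.004 with DESeq2, and 0.044 and 0.051 on TPM, and ran from −0.04 to 0.05. RC3H2 in chaetocin minus siSUV39H1 was 0.006 with RLE and DESeq2, 0.062 with upper-quartile scaling, 0.065 with library totals, 0.024 with the 1 CPM filter, 0.01 with limma-voom, 0.263 and 0.287 on TPM and 0.019 with the covariate, and ran from −0.157 to 0.132. ZFP36L2 in chaetocin minus siNC was 0.018 with library totals. With a replicate left out, the siSUV39H1 change ran from −0.172 to 0.277 for ZC3H12C, from −0.007 to 0.41 for ZC3H12D and from −0.137 to 0.178 for RC3H1.

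No pairing by replicate number was seen, which does not show that the libraries were unpaired. Same-numbered chaetocin and DMSO libraries correlated at 0.07, −0.05 and 0.06 in their deviations from the group means, and siSUV39H1 and siNC libraries at −0.05, −0.27 and 0.16. Between libraries of different number the correlations ran from −0.129 to 0.0701 and from −0.33 to 0.346. With the replicate block, 9, 4, 8 and 5 of the 10 genes were called for chaetocin, for siSUV39H1, for the difference and for siNC minus DMSO, and 11753, 4465, 9821 and 4711 of all genes. The call lost was RC3H1 in siNC minus DMSO (adjusted p = 0.0536).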
